A study of Homo sapiens with 288 samples.

Results

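The Notch signalling and arterial-venous genes described here were 10 of the 17492 protein-coding genes listed in the tables, chosen by their symbols, and all 10 were listed in each of the 3 tables. They comprised the Notch ligands DLL4, JAG1 and JAG2, the receptors NOTCH1 and NOTCH4, the target genes HES1, HEY1 and HEY2, the chemokine receptor gene CXCR4 and the nuclear receptor gene NR2F2. They were measured in single cells of 2 kinds, endothelial (EC) and trophoblast-like (TB), both differentiated from H1, an established human embryonic stem cell line. To obtain EC, H1 cells in E8 medium were given BMP4 at 5 ng/ml together with Activin A at 25 ng/ml for 2 days, after which VEGF and WNT were supplied for 3 days. To obtain TB, H1 cells were kept in E7, which is E8 medium lacking FGF2, with BMP4 at 50 ng/ml and SB431542, an inhibitor of Activin and TGF-beta receptors. The labels give no duration for the TB culture and name no separate cultures. Cells were captured on a Fluidigm C1 chip, and the amplified full-length cDNA of the same 96 cells was sequenced in 3 experiments. In EQ the cDNA input was equal for every cell and equal volumes were pooled, in EQ-Vary the pooled volume was varied between cells, and in EQ-75% the equalized libraries were made and sequenced again at a lower depth.

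Notch is a receptor through which neighbouring cells signal by contact. A ligand of the Delta or Jagged family on one cell binds a Notch receptor on the next, the receptor is cut by ADAM and gamma-secretase proteases, and its intracellular part enters the nucleus, where it joins the DNA-binding protein RBPJ and switches on repressor genes of the HES and HEY families. In blood vessels, DLL4, NOTCH1, NOTCH4, HEY1 and HEY2 are known for their part in arterial identity. CXCR4, the receptor for CXCL12, is used as a marker of arterial endothelium, whereas NR2F2 (COUP-TFII) is known for maintaining venous identity and for restraining Notch genes in veins.

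The DNA that RBPJ recognises has the core TGGGAA, and promoter windows were searched for it. The windows printed below are those that hold a match and lie outside annotated exons. They include CXCR4, which is not 1 of the 3 target genes named above. RefSeq promoter windows of 250 bases ending at the base before the transcription start were used for 9 of the 10 genes, in 12 windows. HEY1, 1 of the 3 target genes, was left out before the search, so the counts below do not cover it. The core was searched on both strands, as TGGGAA and as its reverse complement TTCCCA, and stands in capitals below. The HES1 window lies at chr3:194135898-194136147 of GRCh38.p14 on the plus strand, directly before the gene and outside every annotated exon, and holds the core at 2 places, beginning 84 and 70 bases before the start. The HEY2 window lies at chr6:125749382-125749631 on the plus strand, inside the annotated gene span but in no exon, and holds the reverse complement beginning 213 bases before the start. The CXCR4 window lies at chr2:136118150-136118399 on the minus strand, also inside the gene span and in no exon, with the reverse complement beginning 155 bases before the start.
HES1: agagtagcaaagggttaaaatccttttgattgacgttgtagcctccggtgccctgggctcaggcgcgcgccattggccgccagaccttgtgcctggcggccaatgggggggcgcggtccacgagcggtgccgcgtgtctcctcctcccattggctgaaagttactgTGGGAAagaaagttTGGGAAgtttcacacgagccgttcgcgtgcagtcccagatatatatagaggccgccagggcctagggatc
HEY2: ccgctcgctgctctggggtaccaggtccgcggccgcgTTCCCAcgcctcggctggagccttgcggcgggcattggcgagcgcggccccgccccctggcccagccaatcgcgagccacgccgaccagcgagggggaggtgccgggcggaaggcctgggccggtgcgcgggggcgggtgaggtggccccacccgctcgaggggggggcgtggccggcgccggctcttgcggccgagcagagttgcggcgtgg
CXCR4: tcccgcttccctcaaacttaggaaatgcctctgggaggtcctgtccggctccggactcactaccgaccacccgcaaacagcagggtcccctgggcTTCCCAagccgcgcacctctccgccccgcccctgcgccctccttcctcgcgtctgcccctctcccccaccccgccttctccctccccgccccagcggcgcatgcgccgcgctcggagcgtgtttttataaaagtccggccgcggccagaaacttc
A match was found in windows of 3 of the 9 genes and in 4 of the 12 windows (33.3%), and the same letters occur in 20.8% of the 35116 RefSeq windows of this length. HES1 was the only gene of the 9 with a pair of cores in 1 window. CACGTG, an E-box that HEY proteins bind, occurs in 6.3% of all windows and, of the 9 genes, was found for NR2F2 alone, in a window that overlaps an exon. These matches describe the letters in these windows and say nothing about binding.

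The values were expected counts, which are the reads that the authors' software estimated for each gene, scaled here to a total of 1000000 in each cell (CPM). In EQ, 38 of 45 EC and 48 of 51 TB cells met the limits that the study set for depth and for dominance by a few genes, and their total counts ranged from 471578 to 3966798 in EC (median 2025136) and from 365536 to 3479243 in TB (median 1968563). In EQ-75% 39 EC and 50 TB cells passed, with median totals of 1499256 and 1765249, and in EQ-Vary 38 and 46. A gene was called detected in a cell with a rounded count of at least 1. Because each cell type in each experiment is 1 sample, every SD is a spread between cells, no p-value was computed, and a gene was called higher in a cell type when its mean CPM was at least 4-fold that of the other. Poisson intervals cover the counting of reads only. Binomial intervals treat the cells of a sample as independent draws, and neither kind covers differences between cultures.

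The marker genes separated the cell types as labelled. The summed level of 15 endothelial markers ranged from 609 to 10330 CPM (median 5804) in EC and from 4.57 to 96.3 CPM (median 22.1) in TB, so the ranges did not overlap. The summed level of 13 trophoblast markers ranged from 114 to 3966 CPM (median 501) in EC and from 3300 to 18733 CPM (median 6162) in TB, and these ranges overlapped through cell EC 15. A list of 11 mesoderm and mesenchyme genes summed to 651 to 9905 CPM in TB (median 3737) and to 6.04 to 784 CPM in EC (median 44.8), and its part in the TB values below was not tested. Of the EC cells, EC 15, EC 34 and EC 43 had KDR or PECAM1 under 100 CPM. EC 34 and EC 43 had GATA3, a trophoblast marker, at 781 and 946 CPM. Their KRT8 was 19.6 and 7.62 CPM and their TFAP2A 0.913 and 51.5 CPM, against TB means of 1259 and 229 CPM. Their summed trophoblast markers were 1391 and 1717 CPM, above the EC median of 501. EC 15 had KRT8 at 1696, GATA3 at 3.99 and TFAP2A at 9.46 CPM. GATA3 itself was found in all 38 EC cells, with a mean of 120 CPM in EC and 236 CPM in TB. Leaving out EC 15, EC 34 and EC 43 moved none of the 10 genes across the 4-fold limit.

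Of the 10 genes, 6 were at least 4-fold higher in EC in EQ, which were DLL4, JAG2, NOTCH1, NOTCH4, HEY2 and CXCR4, against a background of 10.8% of the 12751 genes whose mean reached 1 CPM in either cell type. NR2F2 was at least 4-fold higher in TB, against a background of 16%. JAG1, HES1 and HEY1 were under 4-fold. The median log2 ratio of EC to TB was 3.29 over the 10 genes and -0.08 over all genes tested. The same 6 genes passed the limit toward EC in EQ-Vary (background 10.9%), and 5 of them did in EQ-75% (background 10.2%), where NOTCH1 was 3.73-fold higher. NR2F2 stayed the 1 gene called toward TB there, against 15.8% and 16.4%.

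**Figure D1:**
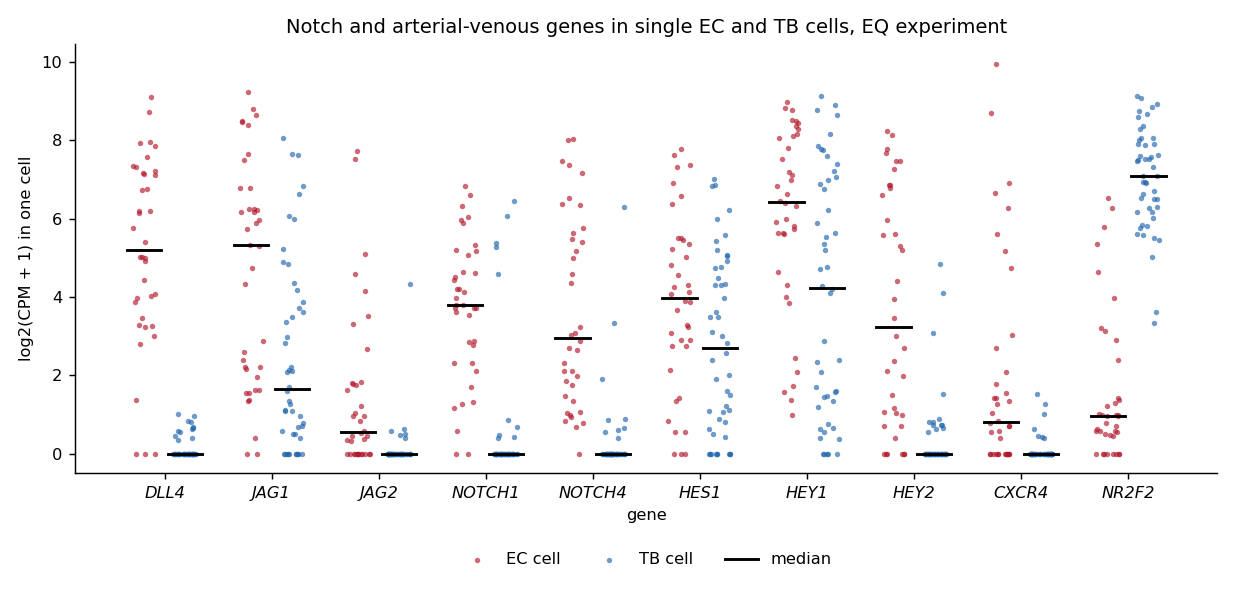
Level of each of the 10 genes in single cells of EQ, on a log2(CPM + 1) scale. Each red point is 1 of 38 EC cells, each blue point 1 of 48 TB cells, and the black bars are medians. DLL4 lies at or near 0 in every TB cell, NR2F2 lies above 9 CPM in every TB cell, and HEY1 spans the whole range in both cell types.

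DLL4, the Delta-family ligand of endothelial tip cells and arteries (chr15:40929340-40939073 of GRCh38, plus strand), had the highest ratio between the cell types in EQ. Its level in EC ranged from 0 to 547 CPM with a median of 36.4, and it was at or above 10 CPM in 29 of the 38 cells and at or above 100 CPM in 14. In TB it ranged from 0 to 1.03 CPM with a median of 0, and the 48 cells together held 13 counts (exact Poisson interval 6.92 to 22.2). All EC cells with any DLL4 count lay above the highest TB cell, which was 35 of 38. The EC cells without a count were EC 4, EC 5 and EC 43. The mean was 93.6 ± 121 CPM (SD, n = 38 cells) in EC and 0.151 ± 0.288 CPM (SD, n = 48 cells) in TB, a ratio of 619.5 that lay between 538 and 707 when each cell was left out in turn. With all 45 EC and 51 TB cells it was 35.4. In EQ-Vary the ratio was 408 and in EQ-75% 1308, with 21 and 6 counts in all TB cells together. DLL4 was detected in 92.1% of EC cells (exact binomial interval 78.6 to 98.3) and in 25.0% of TB cells (13.6 to 39.6). None of the 12 TB cells with DLL4 in EQ had a count in EQ-75%, although 6 others did.

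JAG1, a Jagged-family ligand made by many tissues (chr20:10637684-10673999, minus strand), was high in part of the cells of both types. In EC it ranged from 0 to 603 CPM with a median of 38.98, and in TB from 0 to 265 CPM with a median of 2.16. Only 6 EC cells lay above the highest TB cell, so the types overlapped widely. The means were 99.9 ± 151 CPM (SD, n = 38 cells) and 25.6 ± 57.0 CPM (SD, n = 48 cells), a ratio of 3.90. That ratio stood next to the 4-fold limit and was 4.86 without cell TB 33 and 3.37 without cell EC 4. In EQ-75% it was 3.20.

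JAG2, the second Jagged ligand (chr14:105140982-105168824, minus strand), was carried by few cells. Its EC median was 0.473 CPM, yet EC 26 and EC 23 reached 209.6 and 184 CPM. The highest 5 EC cells held 91.3% of the summed CPM, and 6 cells were at or above 10 CPM. In TB, JAG2 was 19.1 CPM in cell TB 2 and at most 0.564 CPM in the others. The means were 13.5 ± 44.5 CPM (SD, n = 38 cells) and 0.445 ± 2.76 CPM (SD, n = 48 cells). Their ratio of 30.2 rose to 283 without TB 2 and fell to 18.3 without EC 26. MTRNR2L genes are nuclear genes that resemble mitochondrial ribosomal RNA. With only the 7 EC cells in which they took at most 1% of the counts, the ratio reversed to 0.393. All 48 TB cells were kept in that ratio, although 22 of them were over 1%.

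NOTCH1, the receptor used across most tissues (chr9:136494433-136546048, minus strand), was found in most EC cells. It was detected in 36 of 38 EC cells, ranged from 0 to 113 CPM with a median of 12.9, and was at or above 10 CPM in 25 cells. In TB 38 of 48 cells had no count, and 5 cells were at or above 10 CPM with the highest, TB 46, at 86.7 CPM. Most TB cells were thus without NOTCH1, and those with it lay within the range of EC. The means were 23.5 ± 27.6 CPM (SD, n = 38 cells) and 5.35 ± 17.3 CPM (SD, n = 48 cells). The EQ ratio was 4.39, against 4.005 for EQ-Vary and 3.73 for EQ-75%, and it went under the limit, to 3.94, when cell EC 25 was left out and up to 6.49 without TB 46.

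NOTCH4, a receptor known mainly from endothelium (chr6:32194843-32224067, minus strand), had counts in nearly every EC cell but a wide range of levels. It was detected in 37 of 38 EC cells and ranged from 0 to 263 CPM with a median of 6.80. In TB it was detected in 9 of 48 cells, with 78.5 CPM in TB 31, 9.07 CPM in the next cell and less in the others. The means were 42.8 ± 69.6 CPM (SD, n = 38 cells) and 1.96 ± 11.4 CPM (SD, n = 48 cells), a ratio of 21.9 that rose to 131 without TB 31. In EQ-75% the ratio was 30.3.

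The 3 target genes separated into HEY2, which differed between the cell types, and HES1 and HEY1, which were present in both. HES1, the repressor that answers Notch in many tissues (chr3:194136148-194138732, plus strand), ranged from 0 to 220.4 CPM in EC (median 14.9) and from 0 to 127 CPM in TB (median 5.56). It was detected in 35 of 38 EC and 39 of 48 TB cells. The means of 39.4 ± 58.2 CPM (SD, n = 38 cells) and 19.5 ± 31.1 CPM (SD, n = 48 cells) gave a ratio of 2.02, less than the spread between cells.

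HEY1, a HEY-family repressor of the vascular and cardiac lineages, was detected in every EC cell of EQ. It ranged from 1.001 to 508 CPM in EC (median 85.4) and from 0 to 562 CPM in TB (median 17.9), where 26 cells were at or above 10 CPM and 5 cells had no count. The means were 149 ± 150 CPM (SD, n = 38 cells) and 88.9 ± 140 CPM (SD, n = 48 cells), a ratio of 1.68, and the ranges overlapped almost completely. In EQ-75% the ratio was 2.05.

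HEY2, the HEY-family member named for arterial specification (chr6:125747664-125761269, plus strand), divided the EC cells. It was at or above 10 CPM in 19 of 38 EC cells and ranged from 0 to 303 CPM with a median of 8.55. In TB the median was 0, 13 of 48 cells had a count, and the highest cell, TB 46, was at 27.98 CPM. A total of 16 EC cells lay above that cell. The means were 59.4 ± 85.8 CPM (SD, n = 38 cells) and 1.24 ± 4.70 CPM (SD, n = 48 cells), a ratio of 47.9 that rose to 88.4 without TB 46 and was otherwise at least 42.6 when 1 cell was left out. With all 45 EC and 51 TB cells it was 16.5, and with the 7 EC cells of low MTRNR2L share 27.02.

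CXCR4, the arterial marker (chr2:136114349-136119177, minus strand), came from few EC cells. It was 998 CPM in EC 3 and 419 CPM in EC 16, while the EC median was 0.752 CPM and 8 cells were at or above 10 CPM. Those 8 cells kept their CXCR4 in the other experiments, EC 3 with 939 CPM in EQ-Vary and 952 CPM in EQ-75% and EC 16 with 395 and 356 CPM. In TB the highest level was 1.89 CPM and 41 of 48 cells had no count. The means were 48.8 ± 174 CPM (SD, n = 38 cells) and 0.123 ± 0.373 CPM (SD, n = 48 cells), a ratio of 396 that was 188 without EC 3. In EQ-75% the 50 TB cells together held 3 counts (exact Poisson interval 0.619 to 8.77), so no ratio is given there. With the 7 EC cells of low MTRNR2L share the EQ ratio was 146.

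NR2F2, the venous factor (chr15:96325938-96340263, plus strand), was the member with its high level in TB. It was detected in all 48 TB cells and ranged from 9.14 to 558 CPM with a median of 136. In EC it ranged from 0 to 91.3 CPM with a median of 0.952, and 30 TB cells lay above the highest EC cell. The means were 182 ± 145 CPM (SD, n = 48 cells) in TB and 9.07 ± 21.2 CPM (SD, n = 38 cells) in EC, so TB was 20.1-fold higher in EQ, with 18.8-fold for EQ-Vary and 14.95-fold for EQ-75%. With the 7 EC cells of low MTRNR2L share alone, the EC to TB ratio went from 0.0498 to 0.00259. The summed level of the mesoderm and mesenchyme list was also higher in TB, as given above. Over the 48 TB cells NR2F2 had a Spearman rho of -0.21 with the mean log2(CPM + 1) of the genes of that list, and -0.247 in EQ-Vary and -0.253 in EQ-75%. A rho within TB does not compare TB with EC, and the part of that list in the NR2F2 level was not tested.

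**Figure D2:**
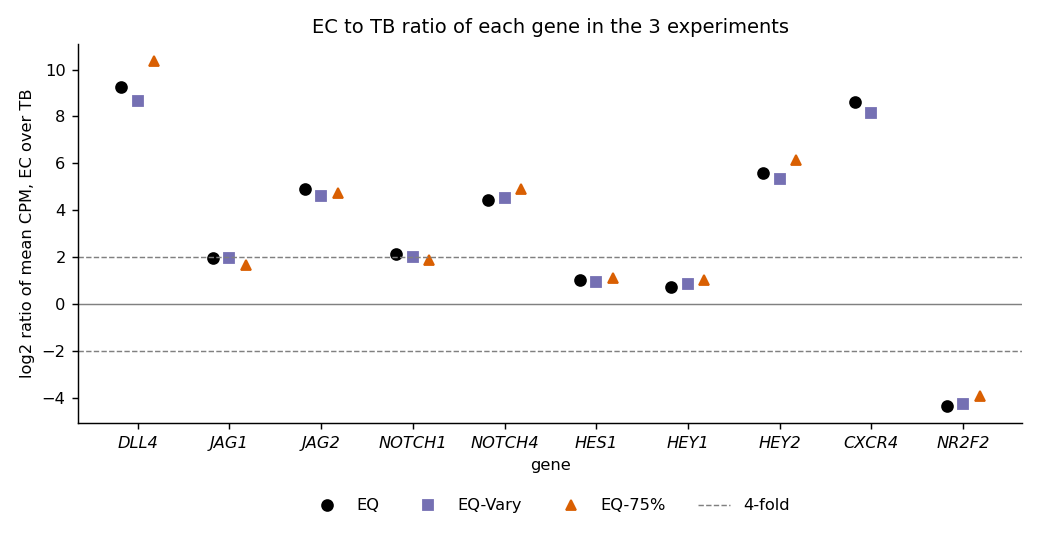
Ratio of mean CPM in EC to mean CPM in TB for each gene, on a log2 scale, in EQ (circles), EQ-Vary (squares) and EQ-75% (triangles), with dashed lines at 4-fold. CXCR4 has no point for EQ-75%, where the TB cells together held 3 counts. JAG1 and NOTCH1 lie along the upper dashed line in all 3 experiments, and NR2F2 is the only gene below 0.

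Levels of different genes can be compared only per length, so the mean CPM was divided by the length of the canonical transcript in kb. On this scale HEY1 was highest in EC at 68.0 CPM per kb, followed by CXCR4 (29.2), DLL4 (27.3), HES1 (25.0), HEY2 (22.6), JAG1 (16.8), NOTCH4 (6.34), NOTCH1 (2.45), JAG2 (2.33) and NR2F2 (1.72 CPM per kb). In TB, HEY1 (40.5 CPM per kb) and NR2F2 (34.5) led, followed by HES1 (12.4), JAG1 (4.31), NOTCH1 (0.559) and the others below. Between every pair of neighbours in either order the gap was smaller than the SD between cells of the higher gene. By the median cell, CXCR4 dropped to 0.451 CPM per kb in EC, where HEY1 (38.9) and DLL4 (10.6 CPM per kb) were highest, and in TB NR2F2 (25.6) stood before HEY1 (8.13 CPM per kb). The ligand DLL4 was thus above both receptors per kb in EC by the mean and by the median.

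Per cell, EC expressed more of the 10 genes than TB. EC cells had 8.66 ± 1.02 of them detected (SD, n = 38 cells, from 6 to 10) and TB cells 4.69 ± 1.01 (SD, n = 48 cells, from 2 to 7), so the ranges met at 6 and 7. Over all 17492 genes the order was the opposite, with a mean of 9274 genes detected in a TB cell and 8767 in an EC cell. At 10 CPM or more the numbers were 4.87 ± 1.66 and 2.48 ± 0.967. When every cell with enough counts was thinned to 500000 counts, which left out 1 EC and 2 TB cells, DLL4 was detected in 33 of 37 EC and 2 of 46 TB cells. NR2F2 was then detected in 21 of 37 EC cells and in all 46 TB cells, and CXCR4 in 20 of 37 EC and 2 of 46 TB cells.

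At 10 CPM or more, 37 of 38 EC cells expressed at least 1 of the 3 ligands, 27 at least 1 of the 2 receptors and 35 at least 1 of the 3 targets. Ligand and receptor stood together in 27 cells, and ligand, receptor and target in 25. A ligand without either receptor was found in 10 EC cells, and a receptor without any ligand in 0. Of the TB cells, 37 of 48 expressed a target, 17 a ligand and 6 a receptor of those among the 10 genes, and 2 had both ligand and receptor. A target without any of the 3 ligands and without NOTCH1 or NOTCH4 was found in 19 TB cells and in 1 EC cell. NOTCH2 and NOTCH3 were not counted in these classes, and were detected in 38 and 36 of the 48 TB cells. In EQ-75%, 28 of 39 EC cells and 2 of 50 TB cells held both ligand and receptor.

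NR2F2 reached 10 CPM in 6 of the EC cells, and 3 of these also had DLL4 at that level. At 10 CPM or more, DLL4 was present without NR2F2 in 26 of 38 EC cells, NR2F2 without DLL4 in 3, both in 3 and neither in 6. The cells with NR2F2 were EC 33 at 91.3 CPM, EC 24 at 76.4, EC 3 at 54.2, EC 38 at 40.02, EC 34 at 24.2 and EC 21 at 14.8 CPM. In EQ-75%, 5 of them were again above 10 CPM, EC 24 with 210.4 CPM, while EC 21 was at 3.52 CPM. EC 3, the cell with the highest CXCR4, thus also held NR2F2, at 53.9 CPM in EQ-Vary and 44.2 CPM in EQ-75%, together with DLL4 at 148 CPM and HEY1 at 440.0 CPM in EQ.

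**Figure D3:**
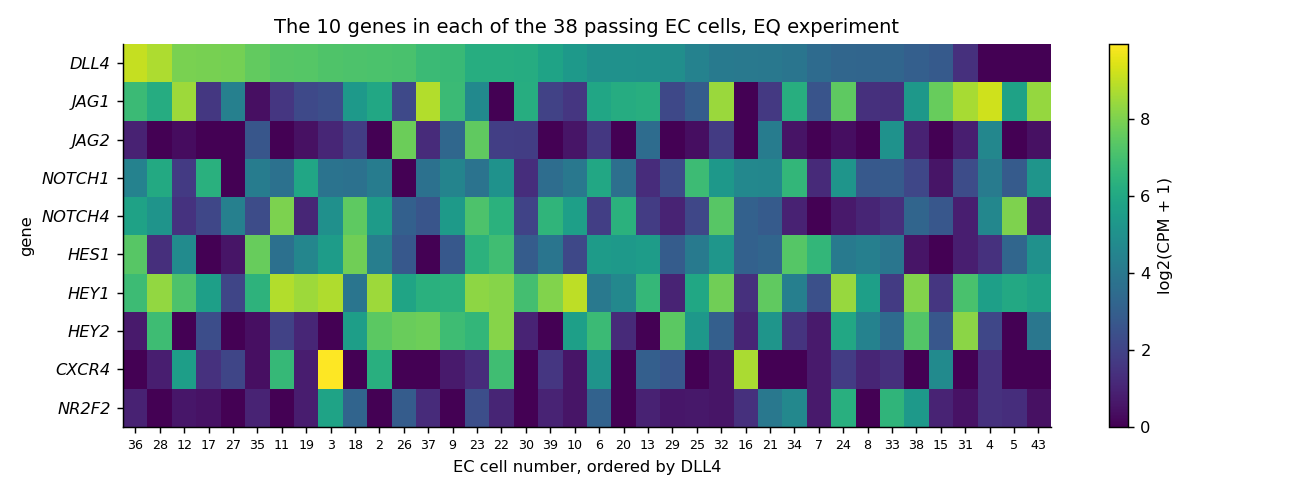
The 10 genes (rows) in each of the 38 passing EC cells of EQ (columns, by cell number, ordered from the highest to the lowest DLL4), coloured by log2(CPM + 1). HEY1 and NOTCH1 carry colour across most columns, whereas CXCR4, JAG2 and NR2F2 are bright in few.

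The genes varied between EC cells to different degrees. The variance of the log level of each gene was divided by the value of a trend fitted over all genes at the same mean, and the median of this ratio over 13059 genes was 1.05. JAG1 (1.72), HEY2 (1.71) and HEY1 (1.56) were in the upper 8.03%, 8.35% and 13.9% of genes in EC, while NR2F2 (0.748) and NOTCH1 (0.676) lay under the median. HEY1 was among the most variable genes of TB, at 1.86 and in the upper 3.01% in EQ, with 2.48% for EQ-Vary and 3.25% for EQ-75%. The HEY1 levels of TB cells reached from 0 in 5 cells to 100 CPM or more in 15.

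Over the 38 EC cells, the 10 genes were nearly uncorrelated with each other. Of the 45 pairs 1 had a Spearman rho of at least 0.4 and 0 had a rho of -0.4 or lower, where 1.64% and 0.53% of all gene pairs did. The median rho was 0.04 and 31 pairs lay within 0.2 of 0. The pair above the limit was JAG2 with NR2F2 at 0.474, which had rho 0.280 in EQ-Vary and 0.151 in EQ-75%. Only 2 cells had both genes at 10 CPM or more, EC 21 and EC 33. JAG2 was under 1 CPM in 23 and NR2F2 in 22 of the 38 cells, and the rho ranks those low values too. All of these values come from cells of 1 sample that share its depth differences, and a weak rho in sparse counts is no finding.

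The pairs that follow were picked after their values were seen, and the 3 experiments share the same cells. The central 95% of the rho values of DLL4 with all 11025 genes compared lay between -0.349 and 0.347 in EQ. DLL4 with its downstream gene HEY1 had rho 0.330 in EQ, then 0.241 for EQ-Vary and 0.189 for EQ-75%, and NOTCH4 with HEY1 had 0.315, 0.284 and 0.294. NOTCH1 with HES1 had 0.232, 0.326 and 0.205. HES1 with HEY2 had -0.275, -0.255 and -0.232, and the ligands DLL4 and JAG1 had -0.172, -0.254 and -0.302. DLL4 with NR2F2 had -0.267, -0.06 and -0.260. In TB, 7 of the genes were detected in enough cells to form 21 pairs, of which none reached 0.4 in either direction, against 1.27% and 0.285% of all gene pairs, and the highest was HEY1 with HEY2 at 0.351.

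**Figure D4:**
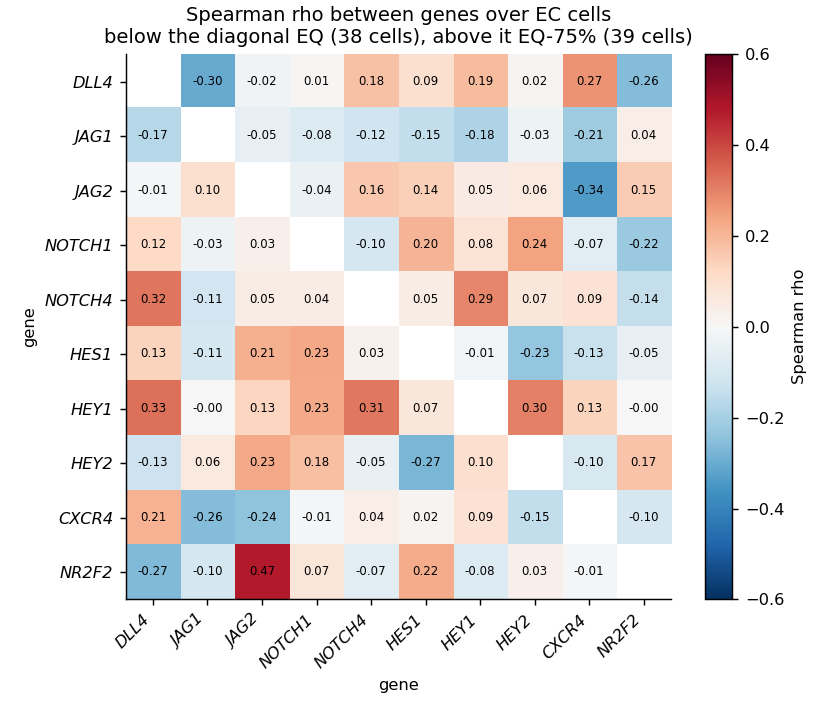
Spearman rho of each pair of the 10 genes over EC cells, below the diagonal for 38 cells of EQ and above it for 39 cells of EQ-75%, coloured from blue (negative) to red (positive). JAG2 with NR2F2 is the only pair at 0.4 or above in EQ, at 0.47, and its value in EQ-75% is 0.15.

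For each gene, the 3 genes with the highest rho over the 38 EC cells were listed among genes detected in at least 50% of EC cells. For DLL4 they were COL4A2 (rho 0.62, a basement membrane collagen), CXorf36 (0.60) and HOPX (0.59), which had 0.53, 0.60 and 0.53 in EQ-75%. For NOTCH4 the nearest was THBD (0.66, thrombomodulin), with 0.56 in EQ-75%. For JAG2 it was EGF (0.67 and 0.50), for HEY2 BPTF (0.61 and 0.61), for JAG1 CRBN (0.60 and 0.58), for HEY1 PNMA1 (0.59 and 0.44), for HES1 TSPAN9 (0.60 and 0.49) and for NOTCH1 SCAF11 (0.58 and 0.44). For CXCR4 it was MELK (0.67), which fell to 0.26 in EQ-75%, followed by the netrin receptor gene UNC5B (0.64 and 0.47), and for NR2F2 it was ZNF8 (0.70), which fell to 0.11. Among the remaining listed genes, RASSF9 for JAG1 fell from 0.60 in EQ to 0.12 in EQ-75%, and COL12A1 for HEY1 from 0.57 to 0.08. LEAP2 for NR2F2 fell from 0.61 to 0.09, and SWT1 for HEY2 from 0.56 to 0.21. EFTUD1 for HES1 fell from 0.59 to 0.25, and TARBP1 for NOTCH1 from 0.55 to 0.26. The listed genes not named here had 0.35 to 0.62 in EQ-75%. The EQ values are the highest of many values over the same cells. Of the 11025 genes detected in at least 20% of EC cells, 0.698% to 3.15% were at 0.4 or above for each of the 10.

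The same cells could be followed from EQ into the other experiments. Every value of the 10 genes at or above 10 CPM in EQ was detected again in the same cell of EQ-75%, which was 183 of 183 in EC and 116 of 116 in TB. Values detected under 1 CPM came back in 18 of 43 cases (41.9%) in EC and in 12 of 59 (20.3%) in TB. Cell by cell, EC had 0.865 ± 1.27 fewer of the genes detected in EQ-75% than in EQ (SD, n = 37 cells) and TB 0.681 ± 1.37 fewer (SD, n = 47 cells), and against EQ-Vary the differences were 0.421 ± 1.03 (SD, n = 38 cells) and 0.174 ± 1.34 (SD, n = 46 cells). Of the EC cells 23 had more of the genes in EQ than in EQ-75% and 6 had fewer, and of the TB cells 26 and 8, while against EQ-Vary the numbers were 19 and 7 in EC and 14 and 12 in TB. With each pair of cells thinned to equal depth the 4 differences were 0.486, 0.532, 0.342 and 0.174 in the same order. The rank order of EC cells was kept best for HEY1 (rho 0.985 between EQ and EQ-75%) and DLL4 (0.984), and least for JAG2 (0.765) and NR2F2 (0.672), where the median over all genes was 0.867.

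Among JAG1, HES1 and HEY1, the members with a mean above 10 CPM in both cell types, HES1 moved most between EQ and EQ-75%. In TB, CXCR4 and DLL4 moved further, by log2 values of -1.86 and -1.19, from EQ means of 0.126 and 0.154 CPM. HES1 was singled out after its values were seen. In the same 37 EC cells its mean was 40.3 CPM in EQ and 26.95 CPM in EQ-75%, a log2 difference of -0.58 (EQ-75% over EQ), and it was lower in 18 of the 23 cells with at least 10 CPM in either experiment. In the same 47 TB cells the mean was 19.9 and 12.6 CPM, a log2 difference of -0.66, and all 21 such cells were lower. A log2 difference of -0.5 or lower was found for 6.05% of genes in EC and 2.4% in TB. HES1 in EQ-Vary differed from EQ by a log2 value of 0.01 in EC and 0.0028 in TB.

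**Figure D5:**
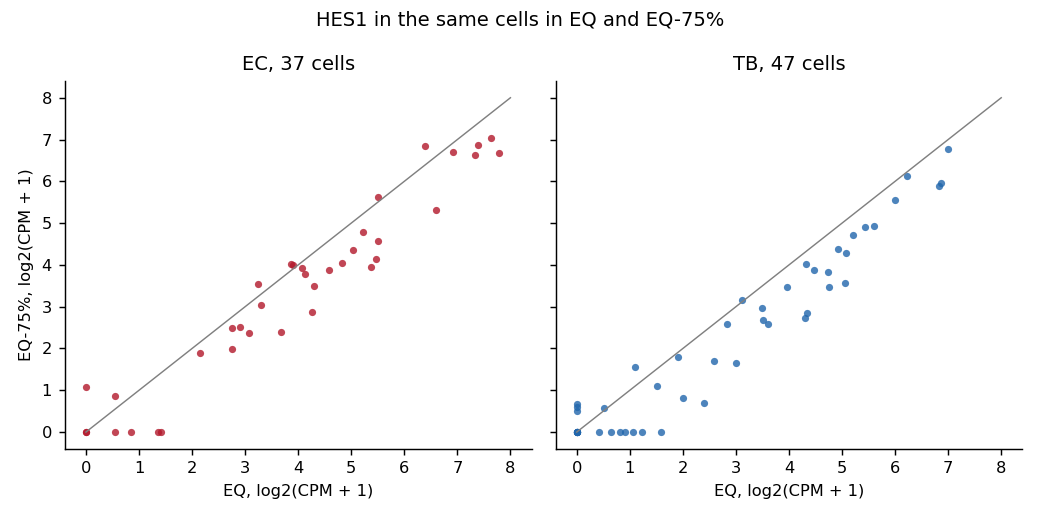
HES1 in the same cell in EQ (horizontal axis) and EQ-75% (vertical axis), both as log2(CPM + 1), for 37 EC cells (left) and 47 TB cells (right), with the line of equal values. The TB cells with at least 10 CPM all lie below the line, as do 18 of 23 such EC cells.

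The other genes of the Notch pathway were compared between the cell types in the same way. Of 57 listed pathway genes outside the 10, 43 could be compared, 8 were at least 4-fold higher in EC (background 10.8%) and 2 in TB (background 16%), and their median log2 ratio was 0.59. Among the ligand genes, DLK1 was 13.5 ± 34.8 CPM in EC (SD, n = 38 cells) and 3.24 ± 20.4 CPM in TB (SD, n = 48 cells). Its EC to TB ratio was 4.17 in EQ and 3.11 in EQ-75%, and its EQ median was 0 CPM in both cell types. Of the receptors, NOTCH2 went the other way, with 6.11 ± 14.4 CPM in EC (SD, n = 38 cells) and 36.02 ± 85.9 CPM in TB (SD, n = 48 cells), and its value is uncertain because near-identical NOTCH2NL copies can share its reads. NOTCH3 was 1.41-fold higher in TB. NOTCH2 was detected in 38 and NOTCH3 in 36 of the 48 TB cells.

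Of the fringe and receptor-modifying enzymes, which set the ligand preference of Notch receptors, MFNG was 28.6 ± 79.4 CPM in EC (SD, n = 38 cells) against 0.0461 ± 0.189 CPM in TB (SD, n = 48 cells), and LFNG was 7.18-fold higher in EC. None of the 9 protease genes, which include ADAM10, ADAM17 and the gamma-secretase subunits, reached 4-fold in either direction. In the nuclear complex 2 of 14 genes did, the corepressor gene TLE3 with 208 ± 257 CPM in EC (SD, n = 38 cells) and 21.5 ± 51.1 CPM in TB (SD, n = 48 cells), and TLE2, while RBPJ itself was 1.83-fold higher in EC. Of the remaining genes past the limit, DLL3, MIB2 and HES4 were higher in EC and RFNG in TB, and these and TLE2 had means under 10 CPM and were named after their values were seen.

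Other markers of arterial and of venous endothelium were compared against the same backgrounds of 10.8% toward EC and 16% toward TB. Of 13 arterial genes outside the 10 that could be compared, 8 were at least 4-fold higher in EC and 2 in TB. SEMA3G was 467-fold, MECOM 428-fold and GJA4, the gap junction gene of arteries, 254-fold higher in EC, and SOX17, a transcription factor upstream of arterial Notch genes, had 35.1 ± 68.4 CPM in EC (SD, n = 38 cells) and a count in 3 TB cells. CXCL12, the ligand of CXCR4, was 27.1-fold higher in TB, at 33.1 ± 66.4 CPM (SD, n = 48 cells), and EFNB2 (3.09-fold) and NRP1 (2.36-fold) were under the limit. Of 8 venous genes other than NR2F2, 6 were at least 4-fold higher in EC, among them APLNR (692-fold), SELP (293-fold), EMCN (34.03-fold) and NRP2 (4.83-fold). FLT4 had no count in any TB cell and was at least 431-fold higher in EC against the floor of 3 counts over the TB group. EPHB4, the receptor for EFNB2, was 2.35-fold higher in EC. Apart from NR2F2, the venous gene at least 4-fold higher in TB was NR2F1, whose mean was 3.03 CPM there and which was named after its value was seen, as was FBLN5, the other arterial gene higher in TB.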

How the data were processed

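The authors deposited, for 288 libraries from 96 single cells, expected counts per gene, without normalization. Each of 3 experiments held 45 EC and 51 TB libraries. Per the methods and the submitters' processing notes, reads were handled with CASAVA 1.8.2, trimmed to 51 bp and mapped with Bowtie 1.2.3 (up to 2 mismatches) to protein-coding genes of Ensembl on GRCh38, and RSEM 1.2.31 estimated the counts. Of the sample columns, 0 were left unused. Doublets and dead cells seen in images had been removed earlier, and no doublet caller was run.

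From these expected counts, values were rounded and scaled to CPM. Cells with a log10 total count under 5.4 or over 31% of counts in the 50 most abundant genes were left out. Cells with the same number came from the same cDNA, and their deviations from the mean of their type were compared with those in EQ. No same-numbered pair correlated below 0.845 (EC) or 0.894 (TB) in EQ-Vary, or below 0.881 or 0.872 in EQ-75%, all above 0.1, so experiments were compared in paired cells. With 1 sample per cell type no test was made. Means under 3 counts over a group were set to that floor. Genes with a mean of at least 1 CPM in either type were compared, and pairs of genes detected in at least 20% of cells were correlated. Variance trends used size factors and log values from scran 1.30.0 and scuttle 1.12.0 in R 4.3.3 with limma 3.58.1, and other steps used Python 3.11.15 with scipy 1.17.1, numpy 2.4.6, matplotlib 3.10.9 and pandas 2.3.3. The steps were tested on simulated data. Alternatives were the other experiments, all cells, higher detection limits, thinned counts, other scaling and Pearson's r. Others left out EC cells rich in MTRNR2L reads or, chosen after seeing the data, EC 15, EC 34 and EC 43.

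The 10 genes and the gene lists were chosen with earlier results of these data known. All 10 are named, as are, per list, up to 5 genes in each direction at least 4-fold apart with a mean of at least 10 CPM, and per gene up to 3 nearest genes. DEPP1 and TBXT were matched by Ensembl ID. Some listed genes, among them NUMB, ITCH, MAML2, MAML3, GJA5 and ZFP42, were not analysed here. Gene positions are of GENCODE annotation, and sequences are from RefSeq.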

Additional observations from a re-analysis of the deposited data

How the results depend on the processing

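The numbers of genes at least 4-fold higher in EC or TB kept their values within 1.5 times under every alternative run. The share of detections among all pairs of gene and cell depended on depth and on the limit. For EQ it was 86.6% of the EC values, for EQ-Vary 82.4% and for EQ-75% 78.5%, and it was 63.7% with a count of at least 5, 55.3% with at least 10 and 75.4% after thinning to 500000 counts. In TB it was 46.9% in EQ and 39.6% in EQ-75%, and 29.2%, 26.9% and 34.6% under the same 3 alternatives. The 1 pair of genes with a rho of at least 0.4 in EC became 0 pairs in EQ-75%, in EQ-Vary, with Pearson's r and with all cells, and 4 pairs without EC cells over 1% of MTRNR2L counts, where 7 EC cells were left. MTRNR2L genes took a median of 1.56% of EC counts and 0.967% of TB counts. The 22 TB cells over 1% were kept, so only EC was filtered. In those 7 cells the EC to TB ratio of JAG2 reversed to 0.393, and those of NR2F2, CXCR4, HEY2, HES1 and NOTCH1 were 0.00259, 146, 27.02, 1.04 and 7.07. With all cells, the ratios of DLL4, HEY2 and NOTCH1 were 35.4, 16.5 and 6.87. Without the replicate block, the difference in genes detected between EQ and EQ-75% was 0.812 in EC and 0.728 in TB, against 0.865 and 0.681 in paired cells, and dropping the block moved none of the 4 differences by more than its SD. Counts near 1 limit the low values, and DLL4 and CXCR4 in TB had 13 and 10 counts in all.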

Other observations

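Of 16 mitotic genes 2, BUB1 (4.32-fold) and KIF20A (4.06-fold), were at least 4-fold higher in EC, against 10.8% of all genes tested. In EQ-75% BUB1 was 4.53-fold and KIF20A 3.61-fold higher. Of 5 pluripotency genes that could be compared 0 were at least 4-fold higher in EC. Of 5 hematopoietic genes MYB was higher in EC, at 28.6 ± 55.4 CPM (SD, n = 38 cells) against 0.0837 ± 0.228 CPM in TB (SD, n = 48 cells). Of 8 mesoderm and mesenchyme genes 4 were at least 4-fold higher in TB, which were COL3A1, LUM, COL1A1 and TAGLN, with LUM at 3042 ± 2423 CPM (SD, n = 48 cells).

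Over the 38 EC cells, each of the 10 genes was compared with the mean log level of the endothelial markers, not their sum. The highest rho in EQ was 0.373, for HEY1, which had 0.334 in EQ-Vary and 0.479 in EQ-75%. DLL4 had 0.335, 0.266 and 0.268 in the same order. NR2F2 had -0.297, -0.196 and -0.328. The rho of the 10 genes with the total count of the cell lay between -0.270 and 0.270 in EQ.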
